A study of Mus musculus with 6 samples.

Results

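The Myc and Pvt1 locus of mouse chromosome 15 held 103 of the 8009 accessible regions found on that chromosome by ATAC-seq, and of 89410 regions in all. It was taken from 500 kb before the Myc gene span to 500 kb after the Pvt1 span, at chr15:61485341-62760215 of GRCm38, a window of 1.27 Mb. A region is the merger of all peaks of the 6 libraries that shared 1 bp or more. The cells were OB Fam20c f/f, an immortalised mouse osteoblast line in which both copies of Fam20c carry loxP sites, and OB Fam20c KO, which was made from that line with a lentivirus for Cre recombinase. There were 3 libraries of each, labelled OB and KO with replicate numbers 1 to 3, from cells in the same medium, with 50000 nuclei transposed for 30 min at 37 °C. No source says whether the KO cells are 1 clone or whether the replicates are separate cultures, so that the p-values measure only the spread between these libraries, which may be technical. Fam20c encodes a kinase of the secretory pathway that phosphorylates secreted proteins, and the design asks what its loss does to chromatin accessibility in osteoblasts.

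Myc is a basic helix-loop-helix leucine zipper transcription factor that drives growth and division. With its partner Max it binds E-boxes, and its own transcription is controlled by enhancers spread far along the flanking DNA on both sides, many of them tissue-specific. Pvt1 is a long noncoding RNA gene downstream of Myc in the same orientation, whose span and promoter hold some of these regulatory elements, and Myc is a known target of Wnt and β-catenin signalling.

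Each library had its own peak list from the authors, which held 32958 to 74797 peaks, and the shortest was that of KO replicate 3. Each peak has a fold at its summit over the local background and a −log10 q, which depend on the depth of the library, so both were turned into a standing within the list, a percentile from 0 to 100 with 100 for the highest value. Reads were not counted here, and a missing peak says only that the site did not pass the threshold in that library. The Fam20c gene, on chromosome 5, had a peak in all 6 lists, with a best standing by −log10 q of 92.8 to 97.8, so that peak presence does not read its deletion. Of 8 osteoblast marker genes, 6 had a peak within 1 kb of a gene end in every library but KO replicate 3, which had 5, and Bglap and Ibsp had none. Blood markers had a peak at 1 to 3 of 4 genes but none at Ptprc, epithelial markers at 1 of 3 but none at Epcam or Cdh1, muscle markers at up to 1 of 2, endothelial markers at up to 1 of 2 and nerve markers at 1 to 2 of 2. The part of other cell types in the results was not tested.

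The locus was covered about as densely as the chromosome around it. It had 80.8 regions per Mb, against 79.5 on the rest of chromosome 15, and the regions covered 5.19% of the locus and 5.18% of the rest. Chromosome 15 itself had the highest density of the autosomes, since the others had 20.6 (chromosome 14) to 59 (chromosome 11) regions per Mb. Among 77 other tiles of the same length along chromosome 15, 35 had more regions than the locus, 41 had fewer and 1 had as many, with a median of 100. The locus regions were narrow, with a median of 441 bp against 509 bp elsewhere on the chromosome, from 257 bp for those in 1 library to 1201.5 bp for those in all 6.

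**Figure D1:**
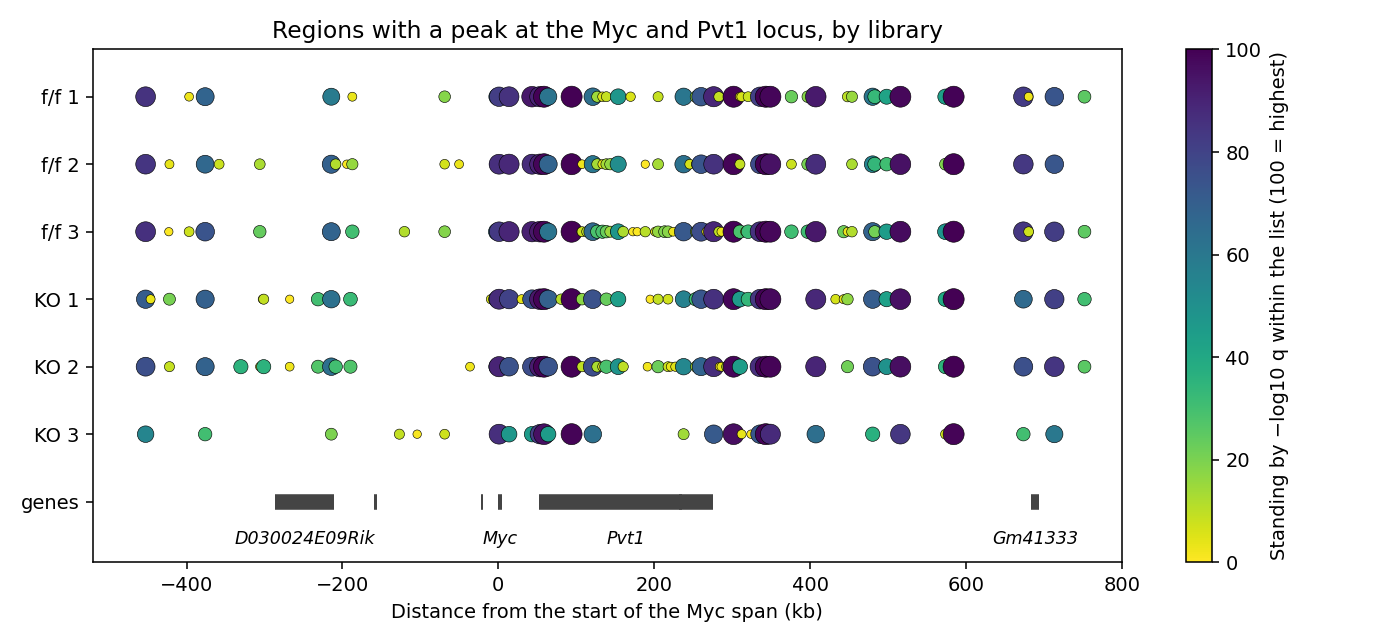
Regions of the Myc and Pvt1 locus that had a peak in each of the 6 libraries (rows), by distance from the start of the Myc span in kb. Colour and size give the standing by −log10 q within the list, and grey bars the gene spans. KO 3 has 29 of the 103 regions, the other libraries 50 to 68, and the darkest points over Pvt1 and beyond it recur in every row.

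In OB Fam20c f/f, 50, 51 and 68 of the 103 regions had a peak, and in OB Fam20c KO 55, 57 and 29 had one. The groups overlapped: their means were 56.3 ± 10.1 (SD, n = 3) and 47 ± 15.6 (SD, n = 3), a difference of -9.33 regions (exact permutation test over 20 assignments, two-sided, p = 0.6). With 3 libraries against 3 that test cannot give a p below 0.1. The lowest and the highest count came from the shortest and the longest list, and without KO replicate 3 the difference was -0.333 regions.

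Measured against the rest of the chromosome in the same list, the share of regions with a peak was lower at the locus in 5 of 6 libraries. It was 48.5%, 49.5% and 66% in f/f, where the rest of chromosome 15 had 52.8%, 57.4% and 65.5%. It was 53.4%, 55.3% and 28.2% in KO, where the rest had 61.4%, 60.4% and 34.7%. The deficit did not differ between the groups beyond its spread, at -3.89 ± 4.19 percentage points (SD, n = 3) in f/f and -6.53 ± 1.48 (SD, n = 3) in KO (difference -2.64, exact permutation test, p = 0.4). That difference was -2.82 without KO replicate 3 and -0.651 without f/f replicate 3, and turned to 2.18 with a −log10 q of 5 or more and to 6.71 against the other autosomes (exact permutation test, p = 0.1). Over all 6 libraries the density of the locus differed from that of the rest of the chromosome by -2.91 ± 2.49 peaks per Mb (SD, n = 6, lower in all but f/f replicate 3; exact sign flips, two-sided, p = 0.0625, where the smallest possible is 0.03125). That order depended on the place of the edges: with flanks of 250 kb the locus was denser in the mean, by 10.5 peaks per Mb (exact sign flips, p = 0.03125). With flanks of 1000 kb the difference was -7.99 peaks per Mb, and with lists cut to equal length -1.46 (exact sign flips, p = 0.03125 each).

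The median standing by −log10 q of the locus peaks was 50.2, 39.9 and 28.8 in f/f and 43.8, 35.8 and 50.8 in KO. It was above the rest of chromosome 15 in 3 of 6 libraries, with a mean difference of -0.470 percentile points (exact sign flips, p = 0.875). The sign of that mean depended on the peaks and libraries used. It was -3.44 without KO replicate 3 but 2.61 without f/f replicate 3, and 6.56 with a −log10 q of 5 or more. It was 12 with lists cut to equal length and 6.82 among regions with a peak in every library, where the locus stood higher in all 6 libraries (exact sign flips, p = 0.03125 each). The difference from the chromosome was 9.96 points higher in KO than in f/f, with overlap (exact permutation test, p = 0.4, and 5.02 without KO replicate 3). By fold the locus medians were 33.9, 31.9 and 25.1 in f/f and 37.6, 37.6 and 34.9 in KO. Relative to the rest of the chromosome, these differed by -6.98 ± 5.76 points in f/f (SD, n = 3) and by 7.37 ± 3.68 in KO (SD, n = 3). The 2 groups did not overlap, with a difference of 14.3 points (exact permutation test, p = 0.1, the smallest possible, and 12.3 without KO replicate 3), but the sign turned to -8.60 when every list was cut to its best 32958 peaks and to -1.73 when only regions with a peak in every library were ranked. Which peaks a list holds thus moved with this difference, and its part in it was not tested.

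**Figure D2:**
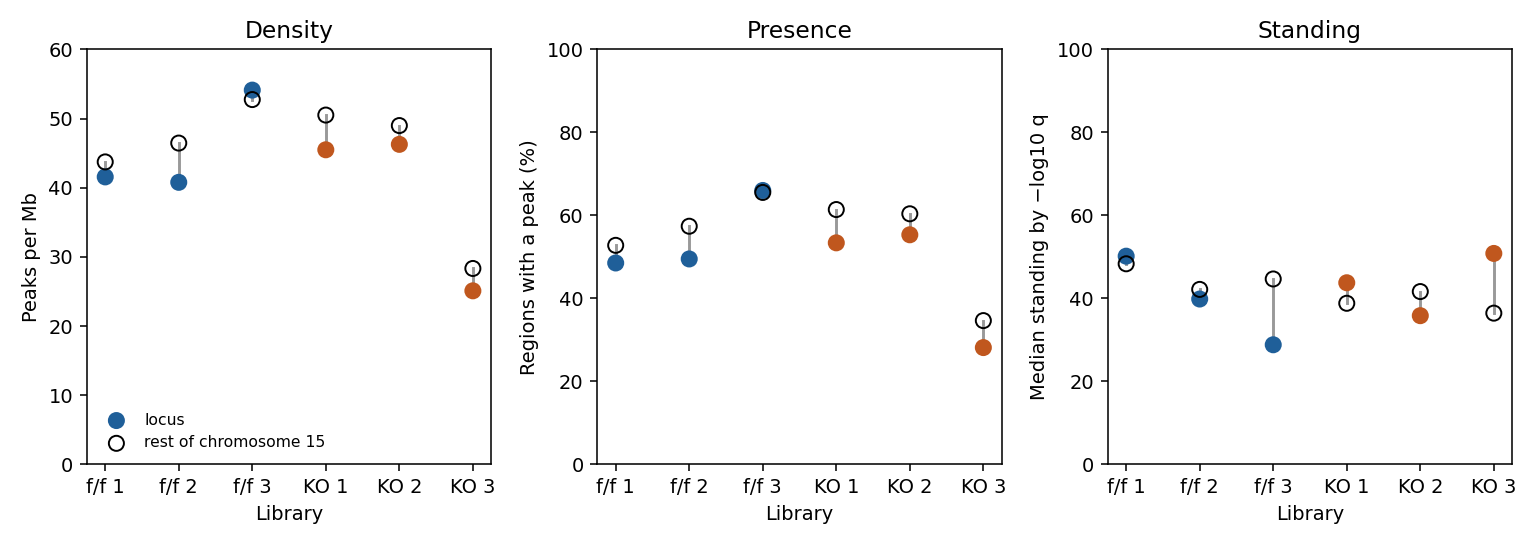
Peaks per Mb, share of regions with a peak (%) and median standing by −log10 q (percentile) at the locus (filled points, blue for f/f and orange for KO) and on the rest of chromosome 15 (open points), for each library. The locus is below the chromosome in density and presence in all libraries but f/f 3, and on both sides of it in standing.

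Of the 103 regions, 24 had a peak in all 6 libraries, or 23.3%, against 26.1% on the rest of chromosome 15 and 33.4% of all regions. Another 40, or 38.8%, were found in 1 library only, against 34.8% on the rest of the chromosome and 19.8% in all. Of these, 12 were in f/f replicate 3, 10 in KO replicate 1, 9 in KO replicate 2 and 2 to 4 in each of the others. All 9 regions found in 5 libraries lacked the peak of KO replicate 3, which was 8.74% of the locus regions and 13.5% of those on the rest of the chromosome.

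The regions were unevenly spread. The Pvt1 span, 222 kb long, held 39 of them (175 per Mb), the 500 kb before Myc 26 (52 per Mb), the 500 kb after Pvt1 34 (68 per Mb), and the 47.6 kb between both genes 3. The shared regions were distributed otherwise, with 12 after Pvt1, 6 over Pvt1, 3 before Myc, 2 between the genes and 1 at Myc. Pvt1 thus had the most regions and the most single-library ones, 19 of its 39. By library its span held 16, 18 and 29 regions in f/f and 18, 21 and 6 in KO, so that KO replicate 3 held the shared Pvt1 regions and no other.

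Over the Myc gene, at chr15:61985341-61990361, lay 1 region of 3928 bp, chr15:61984312-61988239, with a peak in all 6 libraries. It ran from before the gene start, across it and into the gene. Its best peak had a −log10 q of 84.4, 118 and 141 in f/f and of 176, 263 and 53.3 in KO. Within their lists, these values stood at 81.8, 86.4 and 83.5 in f/f and at 87.5, 90.1 and 86.4 in KO. The authors' peak caller split the region differently between libraries. In f/f replicate 1 and in all 3 KO libraries there were 2 large peaks, one with its summit before the Myc start (at -236 bp in f/f replicate 1 and -155 bp in each KO library) and one with its summit 1833 to 1898 bp inside the gene. In f/f replicates 2 and 3 a single peak, of 3466 and 3479 bp, reached into the gene, with its summit at -287 bp in the first and at 1898 bp in the second. The list of f/f replicate 3 had a further peak of 233 bp in the region, with its summit at -904 bp and a −log10 q of 23.5, which sets the region's left edge. The annotation used gives gene spans without exons, so that these places are given by distance only.

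The Myc peaks had a low fold for their −log10 q. Their highest fold was 4.02, 3.89 and 3.49 in f/f and 4.57, 4.89 and 4.56 in KO, which placed them at 17.7, 29.6 and 18.1 and at 27.8, 30.8 and 35.1 within their lists. Peaks of the other autosomes with the same standing by −log10 q had mean standings by fold of 76.7 to 86.1, and the Myc peaks differed from these by -59.8 to -51.0 points over the 6 libraries. Only 12 to 28 peaks of chromosome 15 per library, or 0.226% to 0.631%, lay as far below. The fold is taken over the signal around the summit, and within 10 kb around the Myc summits 3147 to 4145 bp were covered by peaks, where the median chromosome 15 peak had 595 to 1000 bp. Across all chromosome 15 peaks of a library, the bases under peaks nearby and the standing by fold minus its expected value had a Spearman correlation of -0.62 to -0.58, so that more bases went with a lower fold for the −log10 q. It is given as a description over peaks that share a library. The part of the nearby peaks in the low fold at Myc was not tested.

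The nearest region before Myc, chr15:61983232-61983664, showed the same feature. It had a peak in every library but KO replicate 3, with summits between -1928 and -1801 bp from the Myc start. Its standing by −log10 q was 50.2, 35.2 and 56.6 in f/f and 52.5 and 50.7 in KO, whereas its standing by fold was 0.2 to 1.45 in all 5.

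**Figure D3:**
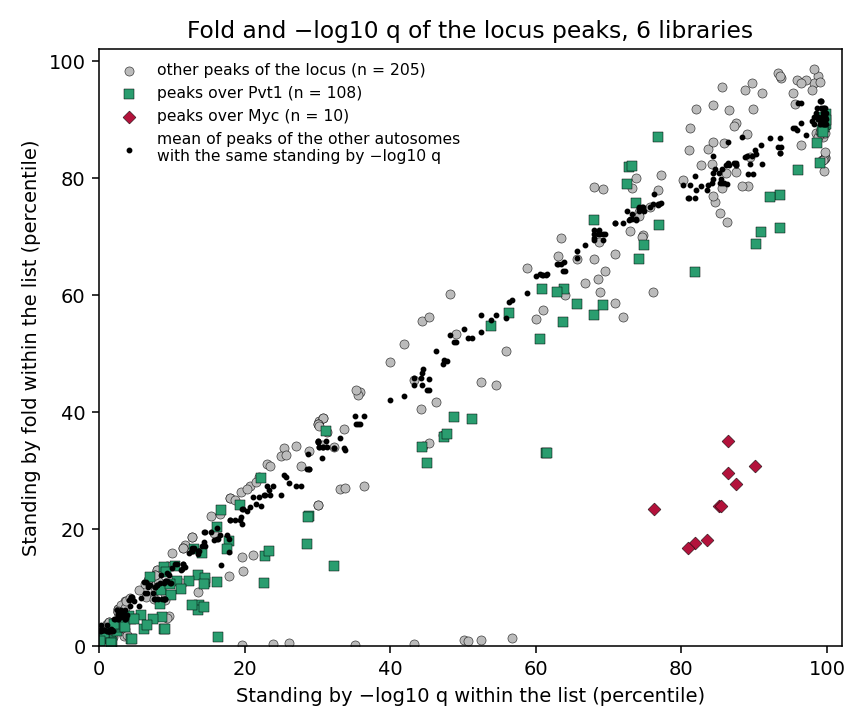
Standing by fold against standing by −log10 q (both percentiles within the list) for the peaks of the locus in all 6 libraries. Red diamonds are the 10 peaks over Myc, green squares the 108 over Pvt1, grey circles the other 205, and black dots the mean of autosomal peaks with the same −log10 q standing. The Myc peaks stand between 76 and 91 by −log10 q but between 16 and 36 by fold.

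The start of Pvt1 (span chr15:62037986-62260215) lay in a region with a peak in all 6 libraries, chr15:62037682-62039540, whose summit was 37 bp after the annotated start in each of them. It stood at 90.2, 90.9 and 93.6 by −log10 q in f/f and at 93.6, 92.2 and 81.9 in KO. Its fold, at 9.46, 7.70 and 9.10 in f/f and 11.5, 11.6 and 6.88 in KO, was above that of Myc in every library. Just past the other end of Pvt1 lay chr15:62261130-62262116, also shared by all 6, with a mean standing by −log10 q of 85.

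The region with the highest mean standing at the locus was not at a gene start but inside Pvt1 at chr15:62078768-62079964, with its summit 41405 to 41448 bp after the Pvt1 start. Its mean standing by −log10 q was 99.7, the 102nd highest of the 2084 shared regions of chromosome 15. Its fold was 13.3, 10.6 and 12.4 in f/f and 15.1, 14.9 and 10.4 in KO. Next came 2 regions beyond Pvt1, chr15:62327598-62329406 and chr15:62568829-62570252, 343 and 584 kb after the Myc start, with mean standings of 99.5 each. The fourth, chr15:62043452-62044488, lay inside Pvt1 (98.7), and the fifth, chr15:62286548-62287762, after it (98.6). In the 500 kb before Myc the highest was chr15:61532029-61533495, at -453 kb from the Myc start, and between the genes it was chr15:62028202-62028965 (78.1), just above chr15:61998435-61999804 (77.8).

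Peaks in all 3 f/f libraries and in no KO library were found at 5 of the 103 regions, or 4.85%, against 3.75% of all regions and 2.01% of the rest of chromosome 15. Of the 77 other tiles of the same length, 2 held more such regions, 68 held fewer and 7 held as many. One lay before Myc, at chr15:61797795-61798237, and 4 after Pvt1, at chr15:62361255-62361597, chr15:62382259-62382657, chr15:62438683-62439476 and chr15:62468050-62468632. These were weak peaks, with mean standings by −log10 q of 16.4, 20.5, 23.2, 13.2 and 29.4. With each list cut to its best 32958 peaks, 0 were left, but the share of all regions was not counted for such lists. Without f/f replicate 2 there were 8 (8.08%, against 6.09% of all regions and 3.61% on the rest of the chromosome) and still 0 KO-only regions (against 0.218% and 0.28%). Without KO replicate 3 there were 6 f/f-only regions (6%, against 3.82% and 2.2%) and 4 KO-only ones (4%, against 2.93% and 3.05%).

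No region had a peak in all 3 KO libraries and in no f/f library (0 of 103, where 0.179% of all regions and 0.202% of the rest of chromosome 15 did). With the short list of KO replicate 3 set aside, 4 regions were found in both other KO libraries and nowhere else, or 3.88%, against 2.72% of all regions and 2.66% of the rest of the chromosome. All 4 lay before Myc, at chr15:61684129-61684441, chr15:61717479-61717741, chr15:61753756-61754223 and chr15:61795409-61795813. The second and the third were within D030024E09Rik, a long noncoding RNA gene. Their standings by −log10 q were 9.25 and 35.6, 0.179 and 2.63, 30.1 and 27, and 32.3 and 27.7 in KO replicates 1 and 2. The last of them and the f/f-only region before Myc were neighbours, at -190 and -187 kb from the Myc start.

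The 24 shared regions were then compared by strength, each ranked by −log10 q within the 29849 regions that every list held. This standing ranks the same regions in every list. Which regions are shared still depends on the lists, of which that of KO replicate 3 was the shortest. In 7 of the 24 all KO libraries stood below all f/f libraries (29.2%, where 20.9% of all shared regions and 24% on the rest of chromosome 15 did), and in 7 all stood above (29.2%, against 21.1% and 21.5%). Without f/f replicate 2, 11 stood below (45.8%, against 25.2% of all shared regions and 29.2% on the rest of chromosome 15), and without KO replicate 3, 7 stood below and 8 above (29.2% and 33.3%, against 27.9% and 26.9% of all shared regions). Ranked by fold, 5 stood below (20.8%, against 13.9% of all shared regions and 20.2% on the rest of chromosome 15) and 3 above (12.5%, against 15.5% and 13.3%). The 5 were all among the 7 by −log10 q (20.8% in both, against 10.8% of all and 14.9% on the rest of the chromosome), and 1 of the 3 was among the 7 that stood above (4.17%, against 11.5% and 10.3%). For a single region without overlap, the exact permutation p is 0.1, the smallest possible.

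At Myc itself KO stood higher by −log10 q. Its region stood at 61.4, 71.5 and 58.9 in f/f and at 73.2, 78.5 and 85.0 in KO, without overlap (means 63.9 ± 6.71 and 78.9 ± 5.90, SD, n = 3 each, difference 15). By fold the same region stood at 3.49, 6.83 and 2.36 in f/f and at 4.34, 5.42 and 29.3 in KO, and the groups overlapped. The start of Pvt1 stood at 79.1, 80.9 and 84.0 in f/f and at 86.2, 83.1 and 80.0 in KO by −log10 q, which overlapped, and at 43.4, 44.8 and 43.3 against 54.3, 53.3 and 60.3 by fold, which did not.

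Both shared regions between Myc and Pvt1 stood lower in KO. The first, chr15:61998435-61999804, 13.8 kb after the Myc start, stood at 69.9, 76.8 and 74.4 in f/f and at 57.8, 45.7 and 42.3 in KO (difference -25.1). The second, chr15:62028202-62028965, 43.2 kb after it and before Pvt1, stood at 86.4, 73.6 and 77.7 in f/f and at 45.1, 50.1 and 40.3 in KO. Its difference of -34.0 was the largest of the 24 in either direction. By fold the groups were apart at both as well, by -32.3 and -42.4 points. These 2 regions lie between gene starts that did not stand lower in KO.

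Over Pvt1 the shared regions went both ways. The region chr15:62106142-62106976 stood at 29.4, 24.8 and 23.6 in f/f and at 46.6, 50.4 and 60.1 in KO (difference 26.4, apart by fold too). The region chr15:62048777-62049856 stood at 26.0, 35.4 and 18.1 against 35.8, 44.5 and 40.0 (difference 13.6, overlapping by fold). Lower in KO was chr15:62222387-62223760, near the transcribed pseudogene Macroh2a3, which lies inside Pvt1, at 25.4, 27.6 and 34.6 against 16.9, 13 and 9.69 (difference -16.0, apart by fold too). All 3 regions whose fold stood higher in KO without overlap were over Pvt1, namely the one at its start, chr15:62078768-62079964 and chr15:62106142-62106976. They made up 12.5% of the 24 shared regions of the locus, no more than the 15.5% of all shared regions and the 13.3% on the rest of chromosome 15.

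Farther out, 2 regions stood lower in KO by both measures. At chr15:61532029-61533495, at -453 kb from the Myc start, the standings were 68.7, 67.8 and 65.7 in f/f and 38.8, 48.7 and 50.1 in KO (difference -21.5). At chr15:62658360-62659681, 674 kb after the Myc start, they were 63.0, 65.7 and 60.5 in f/f and 29.7, 47.6 and 24.6 in KO (difference -29.1). The other 6 regions without overlap lay after Pvt1 and differed by -1.80 to 14.3. Over all 24 the median difference was -1.51 points, where it was -0.12 on the rest of the chromosome and -0.240 over all shared regions. Of the 24, 14 were lower in KO, against 1070 of 2060 on the rest of chromosome 15 and 15303 of all 29849 shared regions.

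**Figure D4:**
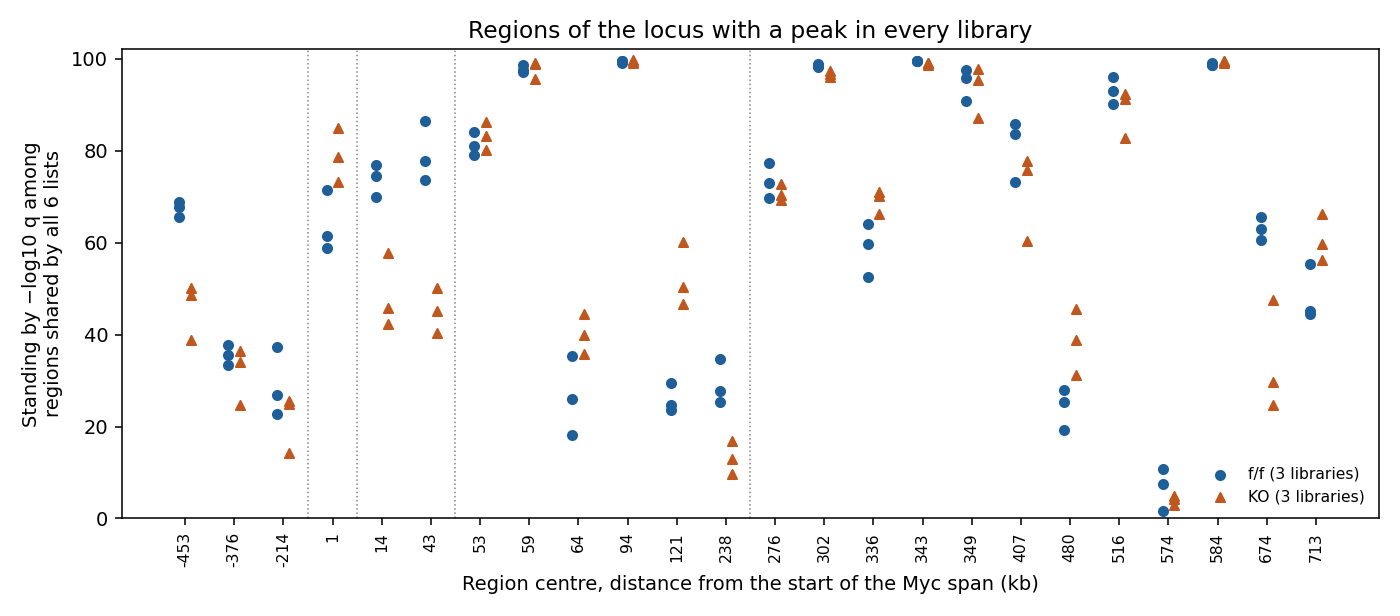
Standing by −log10 q of the 24 regions of the locus with a peak in every library, among all 29849 shared regions, for the 3 f/f (blue circles) and 3 KO (orange triangles) libraries. Regions are in order along the chromosome with the distance of their centres from the Myc start in kb, and dotted lines part the stretches before Myc, at Myc, between the genes, over Pvt1 and after it. KO is higher at Myc and lower at both regions between Myc and Pvt1 (14 and 43 kb), and the groups meet at the start of Pvt1 (53 kb).

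The window held 7 annotated genes, and outside Myc and Pvt1 they had few regions. D030024E09Rik had 4 regions within 3 kb of its span, 1 of them in all 6 libraries, Macroh2a3 had 1, and Gm18154, Gm18788 and Gm41333 had none. The promoters of the long noncoding RNA genes D030024E09Rik and Gm41333 are shown because neither had a peak in any library, while the start of Pvt1 had one in all 6. No promoter sequence was available for Myc or Pvt1, so neither is shown. The sequences are those of RefSeq for GRCm38.p6, from 250 bases before to 50 bases after the start, 5′ to 3′ on the strand of the gene, with capitals for matches on either strand to TATAAA (the TATA box), CCAAT (the CCAAT box), GGGCGG (the GC box), CACGTG (the E-box of Myc and Max), TGANTCA (the AP-1 motif), CTTTGAA or CTTTGAT (the TCF motif of the Wnt pathway) and TTTGGCGC (the E2F motif).
D030024E09Rik, chr15:61774402-61774701, minus strand: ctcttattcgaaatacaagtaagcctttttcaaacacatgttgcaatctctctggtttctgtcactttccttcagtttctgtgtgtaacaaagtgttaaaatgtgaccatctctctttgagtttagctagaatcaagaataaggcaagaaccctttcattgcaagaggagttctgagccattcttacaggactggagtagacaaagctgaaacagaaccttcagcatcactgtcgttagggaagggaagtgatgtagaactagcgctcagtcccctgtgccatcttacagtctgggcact
Gm41333, chr15:62668934-62669233, plus strand: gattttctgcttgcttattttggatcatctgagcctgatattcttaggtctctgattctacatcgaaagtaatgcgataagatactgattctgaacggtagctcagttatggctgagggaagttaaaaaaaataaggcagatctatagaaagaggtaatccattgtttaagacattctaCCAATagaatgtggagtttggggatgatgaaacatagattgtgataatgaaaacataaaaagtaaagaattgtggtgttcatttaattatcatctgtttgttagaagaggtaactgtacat
The first held none of the 8 motifs, and the second held CCAAT once, which 37.4% of 32851 RefSeq promoters of this length hold.

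Beyond the locus, the genes of the Myc network all had accessible regions. The 14 genes of the list had 58 regions within 3 kb of their spans, 28 of them in all 6 libraries, where 33.4% of all regions were. At least 1 shared region was found at 13 genes. The share of all genes with a region was not counted, so these counts are no trait of the network. Of the 58, 5 had a peak in all f/f and no KO library (3.75% of all regions did) and 0 the reverse (0.179% of all regions did). Max, the partner that Myc needs to bind DNA, had 1 region, in all 6 libraries, at 94.4, 93.8 and 94.0 by −log10 q in f/f and at 95.0, 95.6 and 93.2 in KO. Mycn, the Myc paralogue best known from neural tissue, had no shared region. Its only region, chr12:12942331-12942830, had a peak in the 3 f/f libraries, at 27.7, 32.8 and 37.9, and in no KO library. Fbxw7, the ubiquitin ligase subunit that marks Myc for degradation, had 10 regions, 2 of them f/f-only, and Mxi1, which competes with Myc for Max, had 10 with 1 f/f-only. Mlxipl, a glucose-responsive relative that pairs with Mlx, had 6 with 1 f/f-only. The remaining genes had none: Mycl, Mxd1, Mxd3, Mxd4, Mnt, Mga, Mlx, Mlxip and Zbtb17 each had a shared region and no f/f-only one.

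Of 22 RefSeq promoters of the window and the network, 15 had a peak in all 6 libraries and 5 in none. Those of Myc and Pvt1 are not among the 22, because the promoter set used had no entry for either gene. The window promoters counted are those of D030024E09Rik and Gm41333. The share of all RefSeq promoters with a peak was not counted, and some of the 22 overlap and lie in the same region. The promoters of Max and Mycn are shown with the same capitals, as a promoter under a peak in every library and one without a peak beside an f/f-only region.
Max, chr12:76962199-76962498, minus strand: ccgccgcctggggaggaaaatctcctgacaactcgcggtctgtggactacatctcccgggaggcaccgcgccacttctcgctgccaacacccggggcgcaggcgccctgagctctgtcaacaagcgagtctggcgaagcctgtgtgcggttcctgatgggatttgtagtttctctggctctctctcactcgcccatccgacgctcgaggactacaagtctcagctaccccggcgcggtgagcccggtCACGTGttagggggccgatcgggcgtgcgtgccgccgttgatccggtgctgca
Mycn, chr12:12941787-12942086, minus strand: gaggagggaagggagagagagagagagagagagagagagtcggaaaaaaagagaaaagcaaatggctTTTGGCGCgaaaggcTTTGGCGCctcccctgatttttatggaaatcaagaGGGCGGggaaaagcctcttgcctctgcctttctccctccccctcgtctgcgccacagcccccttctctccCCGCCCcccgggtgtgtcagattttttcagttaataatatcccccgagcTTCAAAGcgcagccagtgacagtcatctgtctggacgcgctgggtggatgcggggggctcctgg
The Max promoter held the E-box CACGTG once and lay wholly inside the shared region chr12:76961521-76962953. Among the 20 promoters of the network, 5 held CACGTG (those of Max, Mxd4, Mnt and Mlx and one of Mlxipl), which 7.15% of all RefSeq promoters hold, and 16 held GGGCGG, which 35.7% of all hold. CCAAT was held by 5 (37.4% of all), TATAAA by 2 (13.6%) and TGANTCA by 0 (7.81%). CTTTGAA was held by 1 (5.14%), CTTTGAT by 0 (3.73%) and TTTGGCGC by 1 (0.514%). The comparison is with all RefSeq promoters, whether accessible or not. These 20 include overlapping promoters of 1 gene, and a match is no binding site by itself. The Mycn promoter held GGGCGG 2 times, CTTTGAA 1 time and TTTGGCGC 2 times, the last of which occurs in 0.514% of all promoters.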

How the data were processed

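The data were 6 ATAC-seq peak lists, 3 per genotype, grouped by their labels. Per the labels and methods, the authors used Trimmomatic for trimming, BWA for alignment (mm10) and MACS2 2.1.2 for peak calling (q-value threshold 0.05), library by library. Each deposited list gives a score, the summit's fold over background as a ratio, the −log10 p and the −log10 q, and the lowest −log10 q was 1.30 to 1.34. The treatment of duplicates is not given in the sources used here. The authors' comparison by DESeq2 needs read counts, which were not used here, nor were the depths, so no interval is given.

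Peaks sharing 1 bp were merged, gene spans came from RefSeq GRCm38.p6 (coordinates of mm10, 49943 genes with a place), and the value of a region was its highest peak. Groups were compared by exact permutation tests, and the locus with the chromosome by exact sign flips over 6 libraries. Densities on a chromosome were taken from its first to its last region. Expected standings by fold used 50 bins of the −log10 q standing. The members and lists were chosen with earlier results of these data known. The named regions were those over or nearest the gene ends, the 5 highest, the highest of each stretch and all group-specific ones. The ranking among shared regions, the named shared regions, the expected standings, the 10 kb neighbourhoods and the tiles of equal length were chosen after the data were seen. Alternatives were a −log10 q of at least 5, equal list lengths, flanks of 250 and 1000 kb, other autosomes, means, summit windows of 501 bp, shared regions only, at least 2 of 3 libraries, each library left out and a replicate block. The steps were tested on simulated lists. Calculations ran in Python 3.11.15 (with pandas 2.3.3, scipy 1.17.1, matplotlib 3.10.9 and numpy 2.4.6).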

Additional observations from a re-analysis of the deposited data

How the results depend on the processing

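Of 121 alternative values, 89 kept their direction and their side of the threshold or, for counts, stayed within 1.5 times. Another 21 changed sign and 7 counts moved by more than 1.5 times. The group comparisons could not pass the threshold of 0.05 in any setting, since their smallest p is 0.1. Neither could the sign flips with 1 library left out or over 3 pairs. For these the side of the threshold was fixed in advance, and only the direction could change. Of 95 values with a test, 9 passed the threshold of 0.05, all by sign flips over 6 libraries, 5 of them with the sign changed and 4 with it kept. The cause of these changes was not tested.

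With peaks of −log10 q of 5 or more only, the difference in presence was 2.18 percentage points, the locus stood 6.56 points above the chromosome by −log10 q, and 3 group-specific regions were left. With equal list lengths, KO had 1.67 more locus regions, the differences of standing between the groups were -0.621 by −log10 q and -8.60 by fold, the density differed by -1.46 peaks per Mb, the locus stood above the chromosome by 12 points by −log10 q and 20.8 by fold, and 0 group-specific regions were left. With flanks of 250 kb the locus differed by 10.5 peaks per Mb, 2.13 points by −log10 q and -3.02 by fold, and with 1000 kb by -7.99 peaks per Mb. Against the other autosomes the difference in presence was 6.71, the density differed by 18.5 peaks per Mb and the standing by fold by -17.5 points. With means the standing by −log10 q differed by 1.21. Among shared regions only, the group differences were -0.808 and -1.73, and the locus stood 6.82 points higher by −log10 q and 14.5 by fold. A peak in at least 2 of 3 libraries gave 14 group-specific regions, 10 in f/f and 4 in KO. The share of all regions was not counted for this rule, for equal list lengths or for a −log10 q of 5 or more. Under the main rule f/f-only regions were the more frequent kind in the whole series too, at 3.75% of all regions against 0.179% KO-only. Ranked by fold, 3 shared regions stood higher in KO.

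With each library left out in turn, the group differences ranged from -14.3 to -0.333 regions, -4.69 to -0.651 percentage points of presence, 4.75 to 15.1 points by −log10 q and 11.2 to 16.9 by fold. The locus differed from the chromosome by -3.76 to -2.35 peaks per Mb, -3.44 to 2.61 points by −log10 q (2.61 without f/f replicate 3, 0.598 without KO replicate 2) and -2.06 to 2.88 by fold (-1.01, -0.644 and -2.06 without KO replicates 1, 2 and 3). The group-specific regions numbered 5 to 10, with 8 f/f-only without f/f replicate 2, and 6 f/f-only and 4 KO-only without KO replicate 3. The shared regions without overlap numbered 7 to 11 (lower in KO, 11 without f/f replicate 2) and 7 to 8 (higher, 8 without KO replicate 3).

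A replicate block left the differences at -9.33, -2.64, 9.96 and 14.3 (exact sign flips over 3 pairs, p = 1, 0.5, 0.75 and 0.25). The deviations of libraries with the same number correlated at 0.0678, -0.105 and -0.124, so the numbers were not taken to pair them.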
